A study of Mus musculus with 7 samples.

Results

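The imprinted Dlk1-Dio3 locus of mouse chromosome 12 was described through 7 of the 23413 genes counted in the cortex of APP/PS1 mice: the long non-coding RNAs Meg3, Rian and Mirg, the protein-coding genes Dlk1, Rtl1 and Dio3, and the microRNA hairpin Mir323. The genes were chosen by their position in the locus, after Mir323 had come near the top of the diet comparison when ranked by raw p, where it stood 6th of 15881 with a raw p of 0.00217 and an adjusted p of 0.979 in edgeR's quasi-likelihood test. The diet differences of the locus are therefore given as a description. The locus runs for 829 kb from the start of Dlk1 to the end of Dio3, and 73 of the 103 RefSeq genes in it have a row in the count tables, of which 57 are microRNA hairpins and 7 are small nucleolar RNAs (snoRNAs).

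All mice carried the APPswe and PSEN1dE9 transgenes of the line B6.Cg-Tg(APPswe,PSEN1dE9)85Dbo/Mmjax, a model of amyloid deposition in which mutant human proteins are made mainly in neurons from a prion promoter. Wild-type mice were not analysed here. The control diet (CD, labelled SD) gave 74% of its energy as carbohydrate, 10% as protein and 16% as fat. In the KD, the ketogenic diet, 90% came from fat, 10% from protein and under 0.5% from carbohydrate. Feeding began at 6 months of age and lasted 7 months, the cortex was taken at 13 months, and each of the 4 CD and 3 KD libraries came from 1 mouse, of a sex that the labels do not give. Xist, made from the inactive X chromosome of females, stood at 242 to 526 CPM in CD replicates 1 and 2 and KD replicates 1 and 2 and at 0.314 to 3.08 CPM in the other 3 libraries.

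In this locus the parental origin of a chromosome sets which genes it transcribes. The paternal copy makes the mRNAs of Dlk1, Rtl1 and Dio3, and the maternal copy makes Meg3, Rian, Mirg and a transcript antisense to Rtl1, which together form a long run of RNA that carries clusters of C/D box snoRNAs and microRNAs. An intergenic region between Dlk1 and Meg3, methylated on the paternal copy, controls this choice, and Meg3 is an abundant nuclear RNA of neurons. Dlk1 encodes a membrane protein with EGF repeats that acts on Notch signalling and adipocyte differentiation, Rtl1 derives from a retrotransposon Gag and Pol gene, and Dio3 encodes the deiodinase that inactivates thyroid hormone. The count tables hold no information on alleles, so maternal and paternal RNA could not be told apart.

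The hairpin that led to the choice of the locus is printed here, with both of its mature arms, since its name stands for 86 bases from which reads were counted (RefSeq, GRCm38, chr12:109712508-109712593, plus strand). Capitals mark the arms in the hairpin and the seed, bases 2 to 8, in each arm.
Mir323 hairpin: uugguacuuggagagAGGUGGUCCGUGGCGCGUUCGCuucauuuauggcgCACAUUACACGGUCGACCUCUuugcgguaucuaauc
miR-323-5p: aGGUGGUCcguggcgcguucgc
miR-323-3p: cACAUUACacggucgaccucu
Neither seed recurs in the other arms of the locus. The 57 counted hairpin genes had 106 annotated arms with 98 different seeds, and 8 seeds were shared by more than 1 arm. The shared seeds include those of the neighbouring genes Mir3070a and Mir3070b, whose 3′ arms differ only after the seed, and of Mir379 and Mir411, among the first hairpins of the large cluster that also holds Mir323.
miR-3070-3p: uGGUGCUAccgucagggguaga
miR-3070-2-3p: uGGUGCUAuggucagggguaga
miR-379-3p: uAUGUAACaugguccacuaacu
miR-411-3p: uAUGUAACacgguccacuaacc
The libraries were made from total RNA and read in 50-bp pairs, so the hairpin rows count fragments that cover a hairpin's place in longer transcripts as well as any hairpin itself. Mature microRNAs were not measured.

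The libraries held 22272883 to 36614954 counts, so that 1 count was worth 0.0273 to 0.0449 CPM (counts per 1000000 counts of the library) and the limit that a count of 0 allows, 3 counts, lay at 0.0819 to 0.135 CPM. Markers of excitatory cortical neurons were present in every library, with 1233 to 1806 CPM over 5 genes. The libraries that stood apart in markers of other tissue or cells were CD replicate 1 in choroid plexus genes (451 CPM), CD replicate 4 in olfactory bulb genes (66.7 CPM) and meningeal genes (294 CPM), KD replicate 3 in genes of the hypothalamus and ventral forebrain (130 CPM), and CD replicate 3, with KD replicate 3, in low oligodendrocyte genes (1142 and 1175 CPM, against 2195 to 4353 CPM in the other 5). In the diet comparison no gene passed an adjusted p of 0.05 in edgeR's quasi-likelihood test (0% of 15881), and none did with DESeq2 or limma-voom. At an unadjusted p under 0.05 there were 506 genes (3.19%), and at the study's threshold, a raw p of at most 0.01, there were 51 (0.321%), of which 24 were higher in KD (0.151%) and 27 lower (0.17%). A replicate block over libraries 1 to 3 of each diet took the number at this threshold to 182.

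Of the 7 transcripts, Meg3 and Rian supplied most of the RNA of the locus, and together with Mirg they took 95.0% to 95.9% of its counts in each library. Per kilobase of annotated exon, averaged over the 7 libraries, Meg3 stood at 61.1 ± 22.1 CPM (SD) and Rian at 37.8 ± 4.11 CPM, Mir323 at 6.25 ± 4.46, Mirg at 2.48 ± 0.925, Rtl1 at 2.11 ± 0.785, Dio3 at 0.318 ± 0.448 and Dlk1 at 0.244 ± 0.479 CPM per kilobase. Neighbours in this order whose ranges over libraries overlap are not separated by it, which holds for Meg3 and Rian, for Mir323, Mirg and Rtl1, and for Dio3 and Dlk1. The order of Meg3 and Rian also depended on the length used, since with the longest transcript alone they stood at 76.0 and 85.1 CPM per kilobase. The value for Mir323 comes from a row only 86 bases long and from 4 to 39 counts per library.

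Meg3 (chr12:109541001-109571726, plus strand, GENCODE positions on mm10 here and below) is the first of the maternally expressed RNAs along the locus. It stood at 589, 627, 1537 and 1009 CPM in the 4 CD libraries and at 1046, 1420 and 1510 CPM in the 3 KD libraries. The highest value of all belonged to CD replicate 3, so that the diets overlapped, and the highest CD library held 2.61 times the lowest. The log2 fold change of KD over CD was 0.51 ± 0.32 (SE), with 0.34 when CD replicate 1 was left out and 0.86 when CD replicate 3 was. With the level of Xist as a covariate it was 0.67.

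Rian (chr12:109603940-109661716, plus strand), the host of the snoRNA cluster, varied far less. Its values were 590, 629, 750 and 706 CPM in CD and 646, 688 and 809 CPM in KD, a range of 1.37 times over all libraries. The diets overlapped, with a log2 fold change of 0.10 ± 0.11, which ranged from 0.02 without KD replicate 3 to 0.17 without KD replicate 1. Because Rian moved less than Meg3, the counts of Rian over those of Meg3 were about equal in CD replicates 1 and 2 (1.001 and 1.004) and to 0.485 to 0.700 in the other 5 libraries, of either diet.

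Mirg (chr12:109729764-109749460, plus strand), the last of these RNAs, whose span holds the final group of hairpins, had 11.8, 11.3, 25.5 and 14.3 CPM in CD and 13.7, 26.2 and 23.8 CPM in KD. As for Meg3, CD replicate 3, KD replicate 2 and KD replicate 3 were the high libraries and the diets overlapped. The log2 fold change was 0.45 ± 0.32, and it ranged from 0.25 without KD replicate 2 to 0.79 without CD replicate 3.

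**Figure D1:**
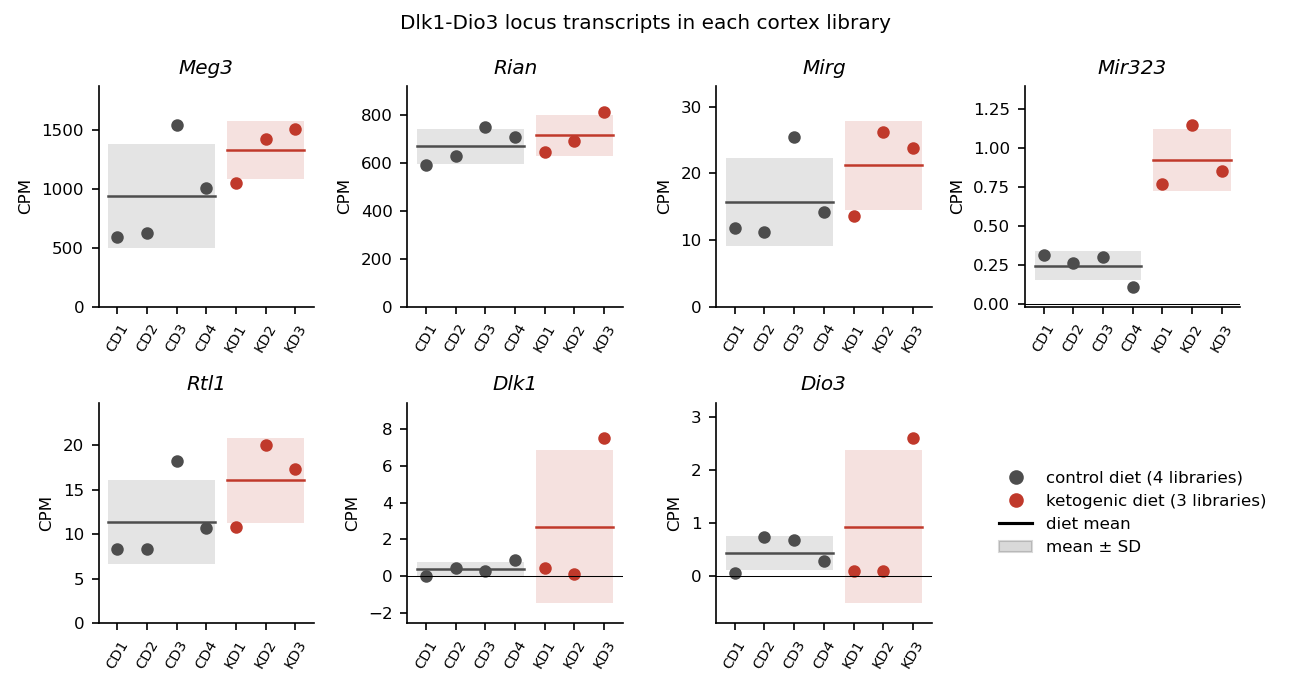
Level of each of the 7 transcripts in CPM in the 4 control diet libraries (CD, grey) and the 3 ketogenic diet libraries (KD, red); each point is 1 library, the line is the diet mean and the band is ± 1 SD. Meg3, Mirg and Rtl1 are high in CD3, KD2 and KD3, Dlk1 and Dio3 are high in KD3, and Mir323 lies between 0.109 and 0.314 CPM in CD and between 0.770 and 1.15 CPM in KD.

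Levels of the 3 maternally expressed RNAs were correlated between mice by Pearson's r, a relation that played no part in the choice of the locus. The tests ask only whether a pair is correlated at all. All values of a library share its depth and RNA quality, and RNAs of other chromosomes ran as closely with Meg3 (below). The correlations are therefore not read as particular to the locus. Over the 7 libraries, log2(CPM + 0.5) of Meg3 and Mirg had a Pearson r of 0.927 (exact permutation test, two-sided, p = 0.00456, adjusted over 3 pairs 0.0137), with a Spearman rho of 0.821 (exact permutation p = 0.0341, adjusted 0.0512). For Meg3 and Rian, r was 0.867 (exact permutation p = 0.0105, adjusted 0.0158) and rho 0.857 (exact permutation p = 0.0238, adjusted 0.0512). The pair with the lowest r was Rian and Mirg, with an r of 0.789 (exact permutation p = 0.0452, adjusted 0.0452) and a rho of 0.714 (exact permutation p = 0.0881, adjusted 0.0881). No rho of these CPM values passed an adjusted p of 0.05. Without the 2 libraries farthest from the median of the first gene of each pair, r was 0.970 for Meg3 and Mirg, 0.688 for Meg3 and Rian and 0.747 for Rian and Mirg, and no pair passed an adjusted p of 0.05 (exact permutation, n = 5, few values for such a test). Within diets, taken as deviations from the diet means, r was 0.909, 0.869 and 0.761 in the same order, and the last did not pass (exact permutation p = 0.0540, adjusted 0.0540). Rian stood at 590 to 688 CPM in the libraries with high Xist, CD replicates 1 and 2 and KD replicates 1 and 2. In the libraries with low Xist, Rian stood at 706 to 809 CPM, while Meg3 and Mirg overlapped between these sets. The part of sex in these correlations was not tested.

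Levels of Meg3 also ran beside the sum of nuclear RNAs from other chromosomes, though not beside each of them. The summed level of 11 nuclear-retained long non-coding RNAs, most of it from Malat1, a nuclear speckle RNA, was 6121, 6839, 14025 and 9577 CPM in CD and 10099, 13825 and 10500 CPM in KD. Its log values had an r of 0.946 and a rho of 0.964 with Meg3 over the 7 libraries, given here as a description with no test, since all values of a library share its depth and RNA quality. Malat1 alone ranged from 3750 to 10709 CPM, with the highest value again in CD replicate 3. Miat and Snhg11 were also highest there, at 467 and 929 CPM. Neat1, Peg13 and Xist, of the same list, were lowest in KD replicate 3, at 25.5, 277 and 0.314 CPM. In the same libraries the 7 oligodendrocyte markers were low where Meg3 was high (r = -0.81, rho = -0.86, n = 7). The r with these markers was -0.86 for Rian, -0.89 for Mirg and -0.85 for Rtl1, and Rian also had an r of -0.76 with pan-neuronal markers. With the hypothalamus and ventral forebrain markers, Rian had an r of 0.709 and a rho of 0.536. The r with those was 0.325 for Meg3, 0.23 for Mirg and 0.206 for Rtl1. The part of nuclear RNA content, of oligodendrocyte content or of ventral tissue in the levels of these RNAs was not tested. In pieces of whole cortex fewer cells of a type and less RNA per cell cannot be told apart.

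**Figure D2:**
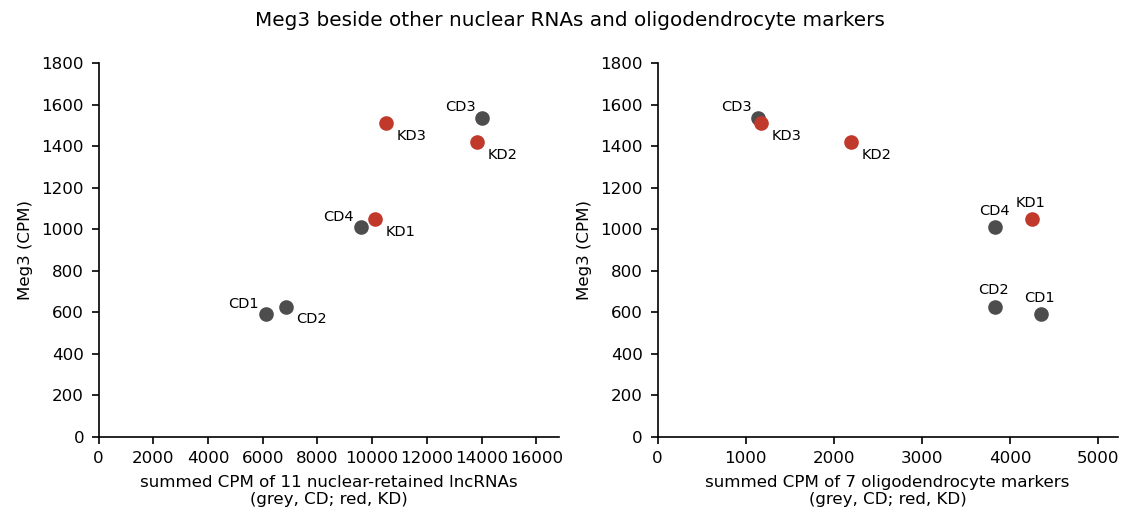
Meg3 (CPM, vertical axis) against the summed CPM of 11 nuclear-retained long non-coding RNAs (left) and of 7 oligodendrocyte markers (right); each point is 1 library, grey for CD and red for KD. CD3 and KD3 have 1537 and 1510 CPM of Meg3 with only 1142 and 1175 CPM of oligodendrocyte markers.

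The genes outside the locus whose pattern was most like the mean standardized level of Meg3, Rian and Mirg were Wsb1 (r = 0.99 over 7 libraries), the predicted gene Gm12359 (0.99), Arglu1 (0.99), Med23 (0.99) and Rnpc3 (0.98). Wsb1 encodes a subunit of a ubiquitin ligase, Med23 a subunit of the Mediator complex, Rnpc3 a protein of the minor spliceosome and Arglu1 a splicing regulator. Wsb1 stood at 51.2, 53.4, 89.1 and 71.2 CPM in CD and at 60.98, 79.5 and 100.1 CPM in KD, low in CD replicates 1 and 2 as Meg3 was. These 5 are the top of a ranking of all tested genes over only 7 points, and no test was made of them.

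Rtl1 (chr12:109589193-109600330, minus strand) is the one member read from the minus strand, opposite the maternal transcript that carries the microRNAs directed at it. It had 8.38, 8.36, 18.3 and 10.7 CPM in CD and 10.8, 20.1 and 17.4 CPM in KD, high in CD replicate 3 and in KD replicates 2 and 3. The log2 fold change was 0.51 ± 0.32 with overlapping diets, and it ranged from 0.30 without KD replicate 2 to 0.83 without CD replicate 3. The counts of Rtl1 kept a nearly fixed ratio to those of Mirg, from 0.712 to 0.788 over the 7 libraries, while the 2 RNAs themselves ranged 2.40 and 2.32 times from lowest to highest CPM. The library kit marks strand, but whether the counting used it is not given in the sources used here, so reads of Rtl1 and of the maternal RNA opposite it cannot be told apart.

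**Figure D3:**
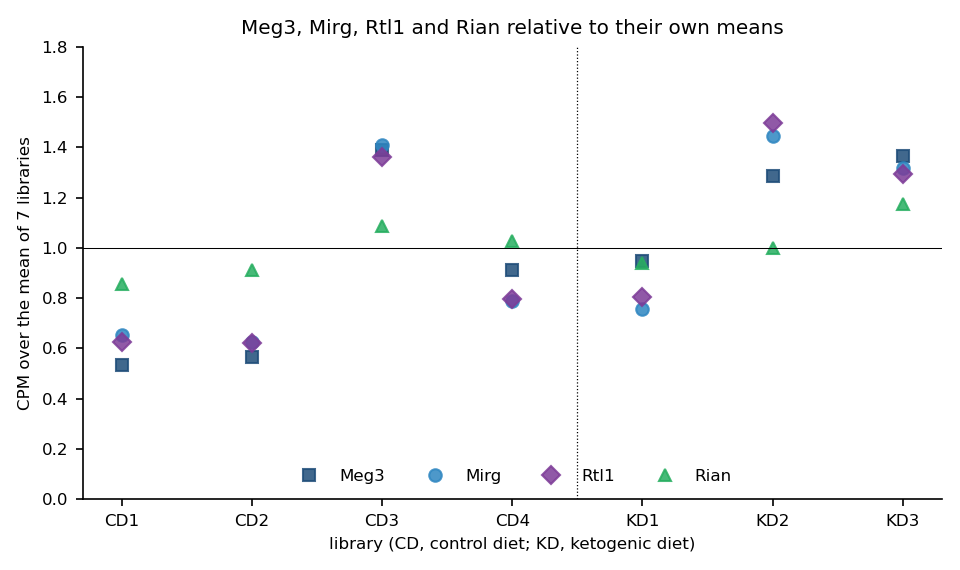
CPM of Meg3, Mirg, Rtl1 and Rian in each library divided by that gene's mean over the 7 libraries (vertical axis, no unit), for CD1 to CD4 and KD1 to KD3. Mirg and Rtl1 lie close to each other in all 7 libraries, and Rian, with a range of 1.37 times, stays nearer to 1 than Meg3, with 2.61 times.

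Dlk1 (chr12:109452823-109463336, plus strand) was scarce in these cortex libraries. Its counts were 0, 13, 9 and 32 in CD and 10, 5 and 167 in KD, or 0, 0.435, 0.275 and 0.874 CPM against 0.428, 0.147 and 7.50 CPM. KD replicate 3 thus held 167 of the 236 counts, and the other KD libraries lay within the CD range. The log2 fold change was 2.73 ± 1.31 with all libraries and -0.48 without KD replicate 3.

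Dio3 (chr12:110279068-110281097, plus strand), at the far end of the locus, had counts of 2, 22, 22 and 10 in CD and 2, 3 and 58 in KD. Of the 7 values 3 are at or under the limit of 3 counts, and KD replicate 3 was again the highest, with 2.60 CPM against 0.0570 to 0.736 CPM in the other 6. The log2 fold change of 1.05 ± 1.17 became -2.24 without this library, 0.11 with the replicate block and 0.18 with the level of Xist as a covariate. Its antisense neighbour Dio3os, with 0 to 12 counts, was also highest there.

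KD replicate 3 was the library in which markers of the hypothalamus and ventral forebrain, where Dlk1 is known to be expressed, stood out. The 14 markers summed to 4.25, 6.89, 5.46 and 30.2 CPM in CD and to 3.59, 3.73 and 130 CPM in KD. Gpr101, an orphan receptor gene, and Trh, the gene of thyrotropin-releasing hormone, made up most of this sum in KD replicate 3, with 63.8 and 44.1 CPM, and were next highest in CD replicate 4, with 17.7 and 10.05 CPM. Lhx9, a transcription factor of diencephalic neurons, had 10.5 CPM in KD replicate 3 against at most 0.385 CPM elsewhere, and Gabrq, a subunit of GABA-A receptors, had 7.68 CPM against at most 0.732 CPM. The neuropeptide genes Hcrt and Pmch were at 0 in KD replicate 3, and Agrp and Pomc had 1.30 and 0.584 CPM there against 0.428 to 1.098 and 0.214 to 0.411 CPM elsewhere. The hormone genes Avp and Oxt and the regulator Otp were at or under 3 counts in all 7 libraries. What ventral tissue contributed to Dlk1 and Dio3 in this library was not tested.

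**Figure D4:**
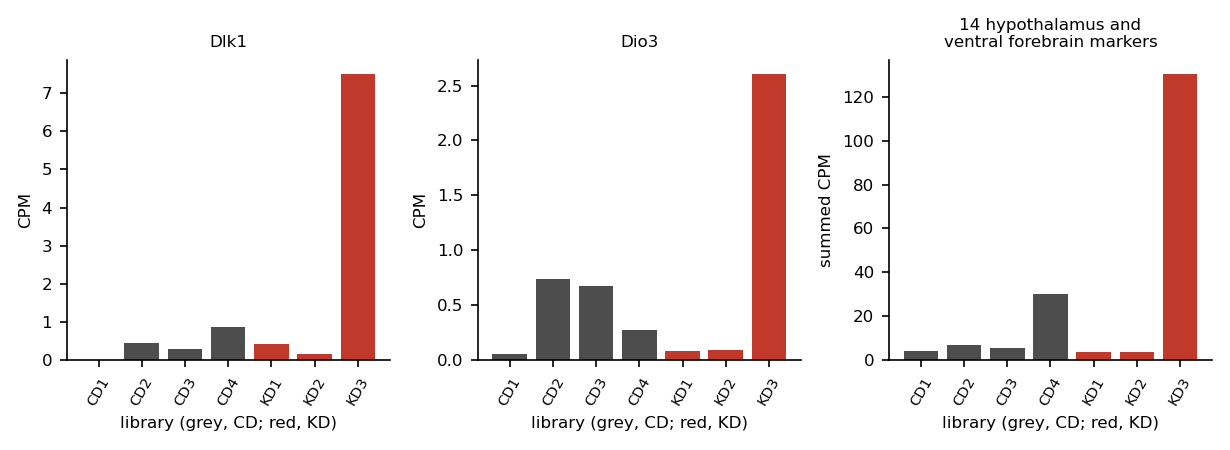
CPM of Dlk1 (left) and Dio3 (middle) and summed CPM of 14 hypothalamus and ventral forebrain markers (right) in each library, grey for CD and red for KD. KD3 is the tallest bar in each panel, with 7.50 CPM, 2.60 CPM and 130 CPM.

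Mir323 had 11, 8, 10 and 4 counts in CD and 18, 39 and 19 counts in KD. In CPM these were 0.314, 0.268, 0.305 and 0.109 against 0.770, 1.15 and 0.853, with means of 0.249 ± 0.0952 (SD, n = 4) and 0.923 ± 0.198 (SD, n = 3). Every KD library lay above every CD library, which 1.64% of all tested genes did, while 2.56% lay below, and since this contrast led to the choice, nothing is read from it. The log2 fold change was 1.90 ± 0.44. The counts of Mir323 over those of Mirg, from the same contrast, were 0.00765 to 0.0266 in CD and 0.0359 to 0.0563 in KD. In all, 1 of the 7 transcripts was past the raw p threshold of 0.01, as were 0.321% of all tested genes, and the count became 0 without KD replicate 2. Without CD replicate 3 it became 3, with Meg3 and Rtl1, while the number over all genes rose from 51 to 211 of 15729.

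All 7 transcripts had a log2 fold change above 0, as did 49% of all tested genes, with a median of 0.51 against -0.0033 over all genes. The same sign was found for the other 39 tested genes of the locus, which share the mice, the depth and in part the transcripts with the 7. In DESeq2, and with other scalings of the libraries, all 7 stayed above 0, but Dio3 did not with limma-voom (-0.13), and neither Dlk1 nor Dio3 did without KD replicate 3.

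The hairpin rows showed where along the transcripts reads were counted. Places inside or between genes follow GENCODE here and below. RefSeq gives Rtl1 a longer span (109564900-109604418), which holds all 7 hairpins placed here between Meg3 and Rtl1, Mir3070a and Mir3070b among them. That span also overlaps GENCODE exons of Meg3 and Rian. It starts Mirg at 109734981, after Mir382, Mir134, Mir668 and Mir485. Which annotation was used for counting is not given in the sources used here. Of the 57 hairpins 33 passed the filter on low counts, with log2 fold changes of 0.12 to 1.90 and a median of 1.01, and 7, Mir323 among them, had a raw p under 0.05, as did 3.19% of all tested genes. The 24 hairpins between the ends of Rian and Mirg, with Mir323 in their midst, summed to 5.96, 5.45, 18.4 and 8.17 CPM in CD and to 13.9, 24.0 and 17.02 CPM in KD. CD replicate 3 lay within the KD range there, so the cluster as a whole overlapped between diets, and it did so too without Mir323. The 13 hairpins inside Mirg summed to 6.24, 6.99, 18.9 and 9.61 CPM in CD and to 9.20, 17.3 and 15.6 CPM in KD, with a median log2 fold change of 0.50 over the 10 tested, against 1.04 over the 19 tested in the cluster before it.

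Of the 33 hairpins that passed the filter, 3 had every KD library above every CD library, as did 1.64% of all tested genes. They were Mir323, Mir3070b and Mir1188. Among the hairpins below the filter the same held for Mir379, Mir369 and Mir3072, each with 10 or fewer counts in every library. All these rows share mice and in part transcripts, so nothing is read from their number. Mir3070b, between Meg3 and Rtl1, had 0.342, 0.301, 0.946 and 0.328 CPM in CD and 1.03, 1.59 and 1.03 CPM in KD, and its log2 fold change was 1.36 ± 0.48. Its near copy Mir3070a overlapped, with 0.428 to 0.946 CPM in CD and 0.943 to 1.84 CPM in KD, and reads may have been split between these 2 alike sequences. Mir1188, in an intron of Rian, had 0.314, 0.334, 0.793 and 0.929 CPM in CD and 2.10, 1.26 and 0.988 CPM in KD, with 1.30 ± 0.48. The diets came close in both genes, since the highest CD library stood at 0.946 and 0.929 CPM and the lowest KD library at 1.03 and 0.988 CPM.

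**Figure D5:**
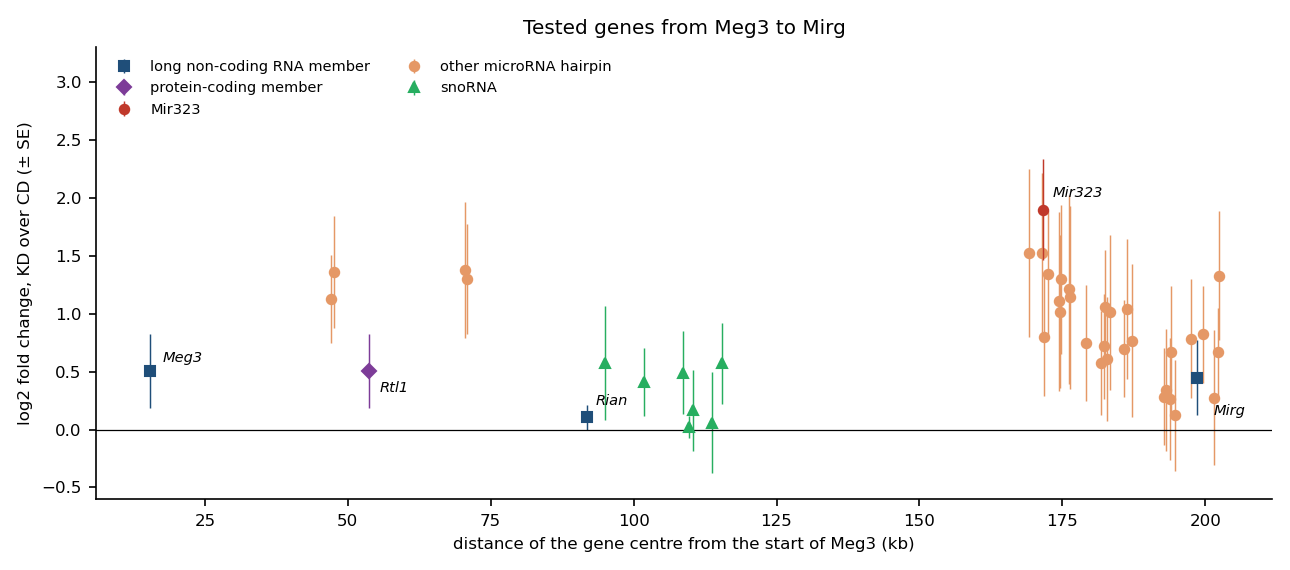
Log2 fold change of KD over CD with its standard error (vertical axis) for each tested gene from Meg3 to Mirg, placed by the distance of its centre from the start of Meg3 in kb (horizontal axis). All points lie above 0; Mir323 is the highest at 1.90, Rian is at 0.10, and the hairpins inside Mirg, at the right end, have a median of 0.50.

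Among the hairpins, 11 had 0 counts in all 7 libraries: both inside Meg3 (Mir1906-1 and Mir770), all 7 inside Rtl1 (Mir431, Mir433, Mir127, Mir434, Mir432, Mir3071 and Mir136), Mir410 in an exon of Mirg, and Mir1247, which overlaps Dio3os. The lncRNA row 6430411K18Rik, inside Rtl1, was at 0 as well. Of the 18 hairpins that overlap a GENCODE exon of Meg3, Rtl1, Rian or Mirg, 10 were at 0. Of the 39 others 1 was, Mir1247, which overlaps a different counted gene, Dio3os. HTSeq leaves out reads that overlap more than 1 gene unless told otherwise, and the setting used is not given in the sources used here, so a 0 in these rows does not show that the RNA was absent.

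The 7 snoRNAs within Rian summed to 36.2, 42.6, 41.0 and 40.9 CPM in CD and to 44.3, 41.0 and 43.8 CPM in KD. No library stood far from the others, and the diets overlapped. AF357359 made up most of the sum, with 29.8 to 35.4 CPM and a log2 fold change of 0.02 ± 0.09. The other 6 lay between 0.06 and 0.57 on the log2 scale.

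The promoter printed here is that of Meg3, the first of the maternally expressed RNAs along the locus. It runs from 250 bases before the start to 50 after it (RefSeq, GRCm38, chr12:109540746-109541045, plus strand). Capitals mark a full cyclic AMP response element (CRE, TGACGTCA, which reads the same on both strands), 57 bases before the start, and a TATA box (TATAAA), 25 bases before it.
Meg3 promoter: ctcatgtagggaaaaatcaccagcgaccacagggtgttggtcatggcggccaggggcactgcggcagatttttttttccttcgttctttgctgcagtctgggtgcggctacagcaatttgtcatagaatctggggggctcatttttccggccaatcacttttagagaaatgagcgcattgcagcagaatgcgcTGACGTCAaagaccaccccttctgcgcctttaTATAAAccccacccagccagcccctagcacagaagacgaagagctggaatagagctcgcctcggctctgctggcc
Of 32851 promoters of this length, 1.79% held the CRE and 13.6% the TATA box on either strand. The CRE was in 1 of the 2 Meg3 promoters of the table and in none of those of Rian, Mirg, Dlk1 and Dio3, while a TATA box was also found for Dio3. A match is a description of letters and not of binding, and the part of this promoter in the levels of Meg3, Rian and Mirg was not tested.

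Neighbouring genes and imprinted genes of other regions were read from the same fit. Of 11 tested neighbours on either side of it 6 were higher in KD, with a median log2 fold change of 0.004. Wars, a tRNA synthetase gene (-0.11 ± 0.07), and Slc25a29, a mitochondrial carrier gene (-0.24 ± 0.18), had the smallest p-values, and none reached a raw p of 0.01. Among imprinted genes of other regions, 9 of 10 maternally expressed ones had a log2 fold change above 0 (median 0.17) and 14 of 22 paternally expressed ones (median 0.14), beside 49% of all tested genes, again with none at a raw p of 0.01. Both lists had their highest sum in KD replicate 3, at 603 and 3564 CPM. Those with the smallest p were Zim1 (1.65 ± 0.82) and Ube3a, a ubiquitin ligase gene (0.20 ± 0.11), on the maternal side, and the antisense RNA Kcnq1ot1 (0.90 ± 0.37) and Peg13 (-0.27 ± 0.11) on the paternal side. Zim1 had 9.38 CPM in KD replicate 3 against 0.647 to 1.86 CPM in the other 6 libraries. Kcnq1ot1 stood at 49.7 to 110 CPM in CD and at 227, 91.9 and 96.6 CPM in KD, so that 1 library, KD replicate 1, stood apart and the diets overlapped.

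The pathways on which Dlk1 and Dio3 act were also read. Of 21 tested Notch ligands, receptors and targets 10 were higher in KD, with a median of -0.0014 and none at a raw p of 0.01. The nearest were Rfng, a glycosyltransferase of Notch (-0.33 ± 0.11), and the target Hes5 (0.64 ± 0.30). Of 17 genes of thyroid hormone handling 8 were higher (median -0.04), led by the receptor partner Rxra (-0.35 ± 0.14), and none reached a raw p of 0.01. Their counts in either direction lay near the 49% of all genes.

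Among genes derived from retrotransposon Gag sequences, as Rtl1 is, all 8 tested had a log2 fold change above 0, as did 49% of all tested genes. Their median was 0.41, with none at a raw p of 0.01. Of the 19 genes listed 10 had a row, and none of these goes by an Rtl name. Pnma2 (0.35 ± 0.14) and Pnma1 (0.47 ± 0.22) led, and the sum of the list was highest in KD replicate 3, at 1101 CPM against 604 to 772 CPM in the other 6 libraries. Of 13 factors that set or keep imprints 9 were higher, with a median of 0.04, led by the zinc finger genes Zfp57 (0.63 ± 0.39) and Zfp445 (0.17 ± 0.12). Genes that process microRNAs (4 of 7 higher, median 0.05, led by Dgcr8 at 0.13 ± 0.10 and Ddx17 at 0.18 ± 0.16) and snoRNP proteins (3 of 4 higher, median 0.01, led by Fbl at -0.13 ± 0.14 and Nop58 at 0.07 ± 0.08) held none at a raw p of 0.01.

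The nuclear-retained long non-coding RNAs had 9 of 11 above 0 (49% of all tested genes), with a median of 0.33, 4 at a raw p under 0.05 (3.19%) and 1 at or under 0.01 (0.321%). This was Gas5, a snoRNA host RNA, with 97.3, 65.4, 96.3 and 89.2 CPM in CD and 112, 119 and 119 CPM in KD (log2 fold change 0.44 ± 0.13, edgeR adjusted p = 0.979). The list took Gas5 as nuclear-retained, and where in the cell this RNA lay was not measured. The list shares Kcnq1ot1 and Peg13 with the imprinted genes. Among the markers of other cell types and tissues, a raw p of at most 0.01 was found for Lhx9 of the hypothalamus list (4.16 ± 1.25), which rests on KD replicate 3, and for Aqp1 of the choroid plexus list (-2.77 ± 0.82), the water channel gene, which was highest in CD replicate 4 (4.15 CPM) and lowest in KD replicate 3 (0.0898 CPM).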

How the data were processed

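Raw read counts per gene were deposited by the authors, 1 table of 23413 symbols for each of 7 mice. Per the labels and the study's methods, RNA from 10 mg of frozen cortex was made into stranded total RNA libraries, read in 50-bp pairs, aligned to mm10 with STAR and counted with HTSeq inside STAR. Versions, annotation and strand setting are not given in the sources used here, and reads are not molecules, so limits cover counting error only.

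The counts were fitted with edgeR 4.0.16 in R 4.3.3 (limma 3.58.1): filterByExpr, TMM scaling, the robust quasi-likelihood test of KD against CD over all 7 libraries, and Benjamini-Hochberg adjustment over the 15881 genes kept. All 7 members were kept. CPM is the count per 1000000 counts of the library, and log2 values used a pseudocount of 0.5. The fit was tested on simulated data. Exact permutation tests ran over all pairings of 7 libraries. Sequences and promoters came from RefSeq, and lengths and exons from GENCODE, which matched 93% of the symbols.

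The members and lists were chosen with earlier results of these data known. Named were the 7 members, the tested genes of the locus, from each list those at a raw p of at most 0.01 or otherwise the 2 smallest, genes a check turned on, and the 5 genes most like Meg3, Rian and Mirg. A gene that this rule names is not reported here. The lists held neighbours, imprinted genes, Notch, thyroid hormone, Gag, imprint control, nuclear RNA, microRNA processing and snoRNP genes, and markers of neurons, glia, vessels, meninges, choroid plexus, olfactory bulb and ventral forebrain. Same-numbered libraries of the 2 diets deviated together (r = 0.309, 0.234 and 0.131), and no label says what the number stands for. The main fit has no block, and the replicate block was run as an alternative. In both diets Xist was high in replicates 1 and 2 and low in replicate 3. The block therefore also takes up the Xist difference, and it is not independent of the fit with Xist as a covariate. Replicates differed by far more than sampling noise (chi-square per gene 15.8 to 68.5), and p-values measure the spread between these mice. Alternatives were DESeq2 1.42.0, limma-voom, RLE, upper-quartile or library-size scaling, other filters, the replicate block, Xist as a covariate, each library left out, and the longest transcript in place of all exons. Leaving out CD replicate 4 and KD replicate 3 together was chosen after seeing the data.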

Additional observations from a re-analysis of the deposited data

Results flagged for a closer look

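In the control group, 6 of 45 values examined had 1 library far from the other 3, where chance gives about 1 in 20, or 2.25. Each is a summed marker or gene list and none is a member of the locus. The share of the group's range that lay between the odd library and its nearest neighbour was 0.901 for paternally expressed imprinted genes of other regions (3325 CPM in CD replicate 4, against 2672 to 2737 CPM), 0.836 for oligodendrocyte markers (low in CD replicate 3), 0.872 for meningeal markers, 0.931 for olfactory bulb markers and 0.898 for hypothalamus and ventral forebrain markers (each high in CD replicate 4), and 0.867 for choroid plexus markers (high in CD replicate 1). For Dlk1, CD replicate 4, with 0.874 CPM, was also the highest of the 4.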

How the results depend on the processing

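The number of genes at a raw p of at most 0.01 was 51, and it was 120 with DESeq2, 182 with the replicate block, 227 with Xist as a covariate and 19 to 211 when single libraries were left out, the highest without CD replicate 3. At an adjusted p of 0.05 there was 1 gene with the Xist covariate (Kdm5d, a Y-linked gene, named after its value was seen) and 0 to 0 with single libraries left out. Members at a raw p of at most 0.01 numbered 1, and 0 with a filter of 1 CPM in 3 libraries, which leaves 4 members without Mir323, and 0 to 3 with single libraries left out. Mir323 had a raw p of 0.0143 without KD replicate 2 in edgeR's test. The sign reversed for Dlk1 without KD replicate 3 (-0.48; up to 3.47 without CD replicate 4), and for Dio3 with limma-voom (-0.13), without KD replicate 3 (-2.24) and without both CD replicate 4 and KD replicate 3 (-2.41). The cause was not tested. The replicate block changed no call of a member, with log2 fold changes of 0.66 for Meg3 and 1.61 for Mir323, but took Dio3 from 1.05 to 0.11. Correlations (r) without single libraries were 0.79 to 0.92 for Meg3 and Rian, 0.90 to 0.96 for Meg3 and Mirg and 0.74 to 0.90 for Rian and Mirg. Rian and Mirg passed an adjusted p of 0.05 only without KD replicate 2, and Meg3 and Rian did not without CD replicate 1 (exact permutation, adjusted p = 0.0813). Without the 2 farthest libraries they were 0.69, 0.97 and 0.75, none past the threshold with 5 libraries, and Rian and Mirg gave 0.76 as deviations from diet means. Dlk1, Dio3 and the hairpins rest on few counts, and the signs of Dlk1 and Dio3 also turned on KD replicate 3.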

Other observations

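The genes outside the locus that ran most against Meg3, Rian and Mirg over the 7 libraries, named after their values were seen, were Cadm4, an adhesion gene of myelinating glia (r = -0.99), Dnaaf2 (-0.98), Dirc2 (-0.98), Tpt1, a translation-linked gene (-0.97), and Lgmn, a lysosomal protease gene (-0.97). Cadm4 stood at 203, 200.1, 142 and 171 CPM in CD and at 181, 158 and 135 CPM in KD. These values are the end of a ranking over 7 points, with no test.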
